A study of Drosophila melanogaster with 54 samples.

Results

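The genes described here are those of calcineurin and calcium signalling at Drosophila egg activation. They were chosen by name: sra, CanB, CanB2, CanA1, CanA-14F, Pp2B-14D, Cam, CaMKII and norpA. All 9 occur in the table of 14250 genes from unfractionated lysates. Of these, 6 were listed in all 6 sucrose gradients, CanA-14F was listed in 5, and CanB and CanA1 were listed in none. The ribosome footprint table holds transcripts of 7 members among 5842 transcripts.

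A mature Drosophila oocyte is arrested in meiosis, and passage through the oviduct activates it through a rise in cytoplasmic calcium. Calcium-bound calmodulin then switches on calcineurin, a protein phosphatase made of a catalytic A subunit and a calcium-binding B subunit, and the kinase CaMKII. The activated egg completes meiosis and changes which stored maternal mRNAs it translates. The kinase PAN GU, whose catalytic subunit is encoded by png, is needed for many of those translational changes.

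Activated eggs were laid over 2 h by virgin OregonR females kept with spermless twine (HB5) males, so the eggs were activated but unfertilized. png eggs came from png1058/png1058 females kept with the same males. Mature oocytes were stage 14 egg chambers, picked by hand from collagenase-treated ovaries of OregonR females 4 days old. Polysome gradients numbered 2 for untreated eggs and 2 for untreated oocytes. Lysates treated with 2 mM puromycin, which releases elongating ribosomes from mRNA, gave 1 egg gradient and 1 oocyte gradient. Their lysis and gradient buffers differed from those of the untreated lysates and lacked cycloheximide, and effects of the drug cannot be told apart from those of the buffer. Ribosome footprints and fragmented poly(A)-selected RNA were sequenced from png eggs, eggs and oocytes, each once with and once without cycloheximide (CHX), a drug that stalls ribosomes on mRNA. The labels do not say whether replicates came from separate collections, and p-values here reflect the spread among libraries alone, which may be technical.

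Messages were separated into free ribonucleoprotein particles (RNPs), 40S, 60S+80S, and low (2 to 4 ribosomes), medium (5 to 9 ribosomes) and heavy (10 or more ribosomes) polysomes. The deposited values are RPKM (read counts scaled to transcript length and library size) that the authors rescaled between fractions. Yeast mRNA was spiked into the fractions of all gradients, per the series design and the labels, and luciferase RNA is named for the egg and puromycin gradients as well. The polysomal share used here is the medium plus heavy value as a percentage of all 6 fractions, tested as the log2 odds of that share. Each gradient table begins at a heavy polysome value of about 4, so a gene with less heavy mRNA is not listed. By the step size of their lowest values, input depth was about 6.2 and 16 (in units of 10⁶ reads) in eggs, against 18 and 2.6 in oocytes, and oocyte replicate 2 was the shallowest. The depth of the fraction and footprint libraries is unknown.

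Libraries from eggs and oocytes were first checked against cell type markers. All 10 germline genes were present in both stages, with summed input values of 1500 to 1608 RPKM in eggs and 1308 to 1466 RPKM in oocytes. Of 13 follicle cell genes, all were above 1 RPKM in oocytes, where they summed to 23274 to 28417 RPKM, whereas in eggs they summed to 0.25 to 0.543 RPKM and 8 were at 0. Neuronal, photoreceptor, haemocyte and fat body markers summed to at most 0.1 RPKM in both stages, and muscle markers to 0.02 to 0.253 RPKM in eggs and 2.5 to 3.98 RPKM in oocytes. Follicle cell RNA was present in the oocyte libraries, and its part in the values below was not tested.

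In unfractionated lysates, 7 members were expressed and 2 were at or near 0. The B subunit gene CanB2 had 208 and 180 RPKM in eggs, against 169 and 148 RPKM in oocytes. Cam, the calmodulin gene, had 94.6 and 208 RPKM in eggs, against 172 and 180 RPKM in oocytes. These genes had the highest levels of the 9 in both stages, and for Cam the egg libraries spanned both oocyte libraries. The other B subunit gene, CanB, was at 0 in both egg libraries, and at 0 and 0.292 RPKM in oocytes, where the value amounts to about 1 read. CanA1, a catalytic subunit gene, was at 0 in all 4 untreated inputs.

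Among the catalytic subunit genes, Pp2B-14D had 34.5 and 48.1 RPKM in eggs, against 56.3 and 61.8 RPKM in oocytes. CanA-14F, its neighbour on the X chromosome, had 19.4 and 28.4 RPKM in eggs, against 23.4 and 26.6 RPKM in oocytes. Both genes are close paralogs, and the sources used here do not say how reads matching both were counted, so the division of reads between them is uncertain. The messages of sra, which encodes the Drosophila regulator of calcineurin (RCAN) called Sarah, were at 25.2 and 37.0 RPKM in eggs, against 41.5 and 43.2 RPKM in oocytes. CaMKII, the calmodulin-dependent kinase gene, had 24.2 and 30.2 RPKM in eggs and 28.6 and 26.4 RPKM in oocytes. norpA, a phospholipase C beta gene best known from the fly eye, had 16.0 and 21.9 RPKM in eggs and 21.8 and 16.8 RPKM in oocytes. The level order in eggs by mean was CanB2, Cam, Pp2B-14D, sra, CaMKII, CanA-14F and norpA, and apart from the step down from CanB2 and Cam, each neighbouring pair had overlapping values.

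None of the 7 testable members differed in input RNA between eggs and oocytes at an adjusted p of 0.05 (limma, Benjamini-Hochberg over 6622 genes), and 3.47% of all genes did. At an unadjusted p of 0.05 the count was also 0. The log2 changes ran from -0.52 for Pp2B-14D, with an adjusted p of 0.416 in limma, to 0.29 for CanB2, with an adjusted p of 0.61. Without egg replicate 2, which left 1 egg library, 593 genes were higher and 1287 lower of 6649 tested, against 28 and 202 of 6622 with it, and 3 members passed the limma test as lower in eggs: Cam at -0.88, Pp2B-14D at -0.76 and sra at -0.73. The puromycin inputs, 1 library each and not tested, departed further for some members. norpA had 3.32 RPKM in puromycin eggs, below both untreated egg libraries, and Pp2B-14D had 14.2 RPKM there. Cam had 454 RPKM and Pp2B-14D 77.2 RPKM in puromycin oocytes, above both untreated oocyte libraries.

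On the gradients, Pp2B-14D, norpA, CanB2 and CaMKII had a lower polysomal share in eggs than in oocytes, and sra and Cam did not pass the test. Of the 6 members listed in every gradient, 4 had a lower polysomal share in eggs and 0 a higher one, while 51.0% of all 5088 genes tested were lower and 18.2% higher, 69.1% in either direction. The members' median change in log2 odds was -0.91, and the median over all genes was -0.60. A share of 4 in 6 is near that background.

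**Figure D1:**
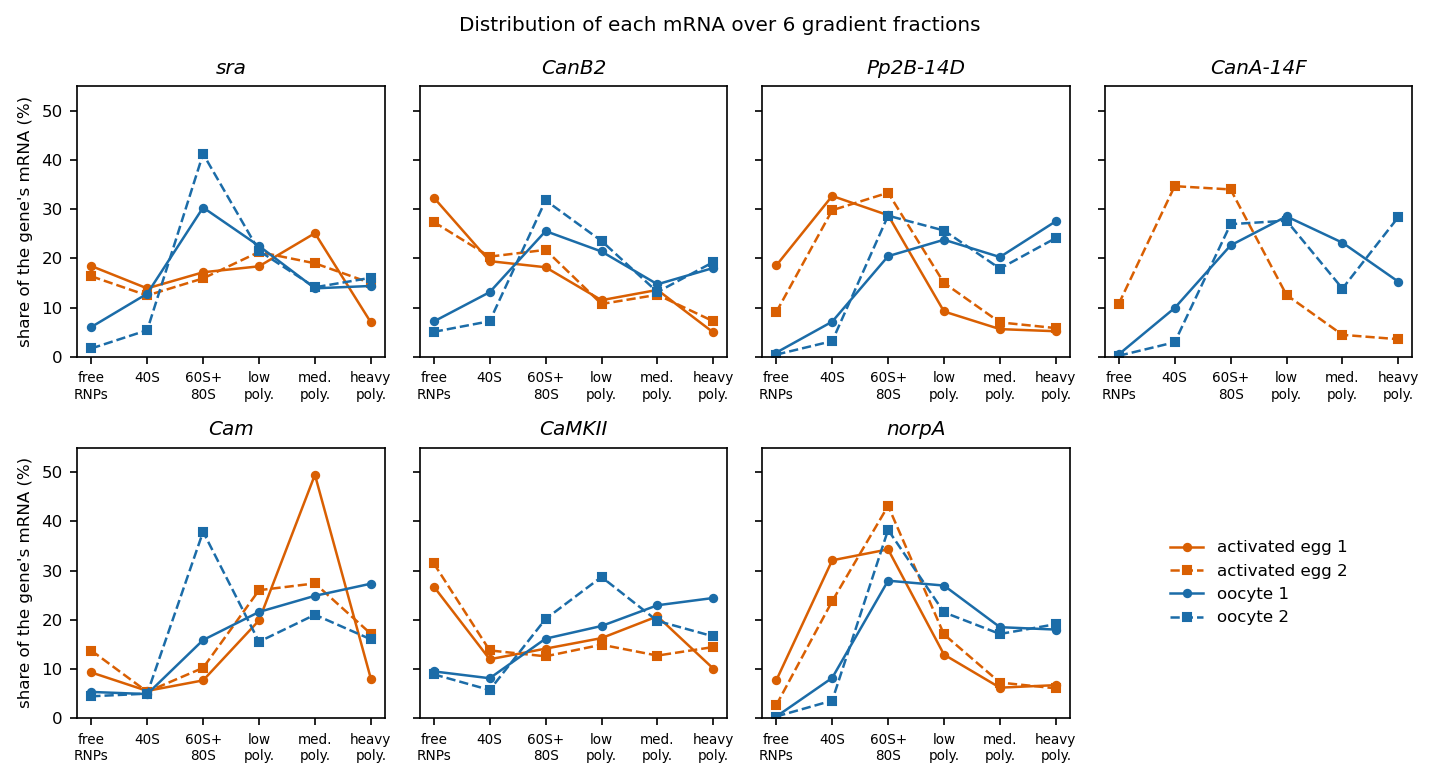
Percentage of mRNA per gene (vertical axis, % of the sum over the fractions) in 6 gradient fractions (horizontal axis) for 2 egg gradients (orange) and 2 oocyte gradients (blue), with replicate 1 as solid lines and replicate 2 as dashed lines. In eggs Pp2B-14D, CanA-14F and norpA had their largest shares in the 40S and 60S+80S fractions, with 40S shares above both oocyte gradients. CanB2 and CaMKII had their largest egg share in free RNPs, and Cam had 49.5% of its mRNA in medium polysomes in 1 egg gradient.

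Pp2B-14D had 10.8% and 12.8% of its mRNA on medium and heavy polysomes in eggs, against 47.8% and 42.0% in oocytes. The groups were far apart, and the change of -2.56 ± 0.19 (log2 odds, SE) had an adjusted p of 0.000126 in limma, the 213th lowest of 5088 genes. In eggs its mRNA was mostly in the 40S fraction, with 32.7% and 29.8%, and in the 60S+80S fraction, with 28.8% and 33.3%. In oocytes the 40S fraction held 7.14% and 3.19% of it, and the 60S+80S fraction 20.4% and 28.7%.

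norpA had 13.0% and 13.3% of its mRNA on medium and heavy polysomes in eggs, against 36.5% and 36.3% in oocytes. Replicates lay close together in each stage, and the change of -1.85 ± 0.15 (log2 odds, SE) had an adjusted p of 0.000143 in limma. Like Pp2B-14D, it was found in eggs mainly in the 60S+80S fraction, at 34.3% and 43.1%, and the 40S fraction, at 32.1% and 23.8%. The 60S+80S share of norpA overlapped its oocyte values of 27.95% and 38.27%. Its 40S share, as for Pp2B-14D, was above both oocyte values, here 8.21% and 3.59%. The profiles of these messages over 36 values, 6 fractions in each of 6 gradients, were the most alike of any pair among the 6 members listed in all gradients, with a root-mean-square difference of 4.58 percentage points.

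CanA-14F was not listed in egg replicate 1, and its heavy value in egg replicate 2 was 5.83, close to the listing minimum. It had 8.04% of its mRNA on medium and heavy polysomes in that egg gradient, against 38.4% and 42.2% in oocytes. A fit that leaves out a gene's missing gradient, chosen after the data were seen, gave a change of -2.87 ± 0.22 (log2 odds, SE; adjusted p of 0.000258 over 5295 genes, limma). Over the 30 values of the gradients that list CanA-14F, its profile differed from that of Pp2B-14D by 3.24 percentage points (root mean square), less than the 4.43 between Pp2B-14D and norpA. How reads matching both paralogs were counted is not stated, and its part in this likeness was not tested. The change rests on 1 egg gradient, assumed to vary as the other groups do, and 69.0% of the genes in that fit were called.

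The B subunit message CanB2 had 18.5% and 19.8% of its mRNA on medium and heavy polysomes in eggs, against 32.8% and 32.4% in oocytes. The stages did not overlap, and the change was -1.02 ± 0.15 (log2 odds, SE; adjusted p of 0.00135, limma). Its egg mRNA lay instead in free RNPs, with 32.3% and 27.4% of the total, against 7.17% and 5.07% in oocytes. After scaling every fraction to its own sum, the change was -0.48 with an adjusted p of 0.14 (limma), which fell short of the threshold.

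CaMKII had 30.8% and 27.2% of its mRNA on medium and heavy polysomes in eggs, against 47.4% and 36.4% in oocytes. The stages did not overlap, but the oocyte replicates lay far apart, and the change was -0.80 ± 0.25 (log2 odds, SE; adjusted p of 0.0261, limma). It did not pass without oocyte replicate 1 (-0.48, adjusted p of 0.149), after scaling every fraction to its own sum (-0.27, adjusted p of 0.351), with gradients centred on their median (-0.29, adjusted p of 0.302) or with heavy polysomes alone (-0.85, adjusted p of 0.0651), all in limma. In eggs, 26.8% and 31.5% of its mRNA was in free RNPs, against 9.53% and 8.94% in oocytes.

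The sra message had a polysomal share of 32.1% and 34.0% in eggs, against 28.3% and 30.2% in oocytes. Both egg values were above both oocyte values by a small margin, and the change of 0.26 ± 0.16 (log2 odds, SE) had an adjusted p of 0.19 in limma. Because the typical gene had a lower share in eggs, centring each gradient on its median put sra at 0.77 with an adjusted p of 0.00575 (limma), and counting heavy polysomes alone turned it to -0.59 with an adjusted p of 0.236. Within the polysomes, medium polysomes held 25.1% and 19.0% of sra mRNA in eggs, against 13.9% and 14.1% in oocytes, and heavy polysomes held 7.00% and 15.0% in eggs, against 14.4% and 16.1% in oocytes. The 60S+80S fraction was lower in eggs, at 17.2% and 15.9%, against 30.3% and 41.2% in oocytes. The genes with the most similar profiles over the 36 values were Mtl, CG7206 and Rab8, at 2.37 to 2.96 percentage points, where the median gene differed from sra by 8.08 points.

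Cam had 57.5% and 44.6% of its mRNA on medium and heavy polysomes in eggs, against 52.2% and 37.1% in oocytes. The stages overlapped, and the change of 0.38 ± 0.37 (log2 odds, SE) had an adjusted p of 0.395 in limma. Its direction was not stable: without oocyte replicate 2 it was -0.07, and with heavy polysomes alone -0.98, both short of the limma threshold, whereas without egg replicate 2 it was 0.75 and passed. Cam had the largest polysomal share of the members in each of the 2 egg gradients.

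The share of mRNA in free RNPs was higher in eggs for 5 of 6 members, and 79.3% of all genes were higher, 79.9% in either direction. Pp2B-14D had 18.6% and 9.08% in RNPs in eggs, against 0.856% and 0.449% in oocytes, a change of 3.89 ± 0.77 (log2 odds, SE; adjusted p of 2.27e-06, limma). CanB2 rose by 2.71 ± 0.46, with an adjusted p of 4.52e-08 in limma. sra had 18.4% and 16.4% in RNPs in eggs, against 6.05% and 1.70% in oocytes, a change of 2.47 ± 0.67 with an adjusted p of 0.0005 (limma). Its call was lost without oocyte replicate 2, at 1.66 with an adjusted p of 0.148 (limma), and that of norpA (2.00) without either oocyte replicate, with adjusted p of 0.23 and 0.151 (limma). The members' median change was 2.24, near the 2.12 of all genes, and only Pp2B-14D passed once gradients were centred on their median (1.84, adjusted p of 0.0152, limma). After that centring Cam, CaMKII and norpA had changes of -0.76, -0.10 and -0.05, none of which passed.

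With 1 puromycin gradient per stage, the spread behind the next tests came from the untreated gradients. In puromycin-treated eggs, sra fell to a polysomal share of 8.61%, against 32.1% and 34.0% in untreated eggs, a change of -2.39 ± 0.19 (log2 odds, SE; adjusted p of 6.46e-05, limma). Cam fell to 11.4%, against 57.5% and 44.6%, and CaMKII to 6.55%, against 30.8% and 27.2%. CanB2 fell to 7.94%, against 18.5% and 19.8%. These 4 of 6 members passed in limma, with adjusted p of 0.000894 for Cam, 0.000297 for CaMKII and 0.000431 for CanB2, and 80.1% of all genes were lower, 81.1% in either direction. Relative to the median gene, which changed by -1.83, CanB2 reversed to 0.45, and sra (-0.48), Cam (-1.11) and CaMKII (-0.62) kept their direction without passing in limma. The rescaled totals of these 4 messages were larger in puromycin eggs, for Cam 8454 against 600 and 489. Medium and heavy values of Cam and sra were above both untreated egg gradients, and heavy values of CaMKII and CanB2 below both. For Cam and sra a lower share thus need not mean less polysomal mRNA. Whether rescaled values compare between gradients is unknown.

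Pp2B-14D and norpA, which had the lowest shares of the 6 members in untreated eggs, did not pass the puromycin test. Pp2B-14D had 12.7% in medium and heavy polysomes in puromycin eggs, against 10.8% and 12.8% in untreated eggs. norpA had 12.7% in puromycin eggs, against 13.0% and 13.3% in untreated eggs. Neither passed in limma, with adjusted p of 0.769 and 0.566, and after centring both passed as higher than the median gene, at 1.98 and 1.78 in log2 odds. With heavy polysomes alone norpA passed as lower (-1.04, adjusted p of 0.0204, limma) and Pp2B-14D did not (-0.73, adjusted p of 0.0787, limma). CanA-14F had 10.5% in puromycin eggs, against 8.04% in the 1 untreated egg gradient that lists it. With low polysomes counted as well, Pp2B-14D had 43.9% in puromycin eggs, against 20.0% and 27.8% in untreated eggs. On that cut norpA had 50.9%, against 25.9% and 30.4%, and both were thus higher than in either untreated egg gradient. The shares of sra, Cam, CaMKII and CanB2 on that cut were lower than in both untreated egg gradients. Rescaled totals of Pp2B-14D and norpA were larger in puromycin eggs too. They were 1204 against 244 and 198 for Pp2B-14D, and 506 against 102 and 104 for norpA. Medium and heavy values of both were above both untreated egg gradients, so a similar share need not mean unchanged polysomal mRNA.

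In puromycin-treated oocytes no member passed the test. sra had 30.2% of its mRNA on medium and heavy polysomes, against 28.3% and 30.2% in untreated oocytes, and the change of 0.06 ± 0.19 (log2 odds, SE) had an adjusted p of 0.824 in limma. Pp2B-14D had 34.6% in puromycin oocytes, against 47.8% and 42.0% in untreated oocytes. CaMKII had 28.6% in puromycin oocytes, against 47.4% and 36.4% in untreated oocytes. The 5 members other than sra had a lower value than both untreated oocyte gradients, but 0 of 6 passed in limma, where 50.0% of all genes did. After scaling every fraction to its own sum, CanB2, Pp2B-14D, Cam and norpA turned higher, at 0.37 to 0.97 in log2 odds, and CaMKII stayed lower at -0.10. At an unadjusted p of 0.05, CanB2, Pp2B-14D and CaMKII would pass. The count depends on the pooled spread, since leaving out either egg replicate from the fit gave 4 calls, all lower.

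**Figure D2:**
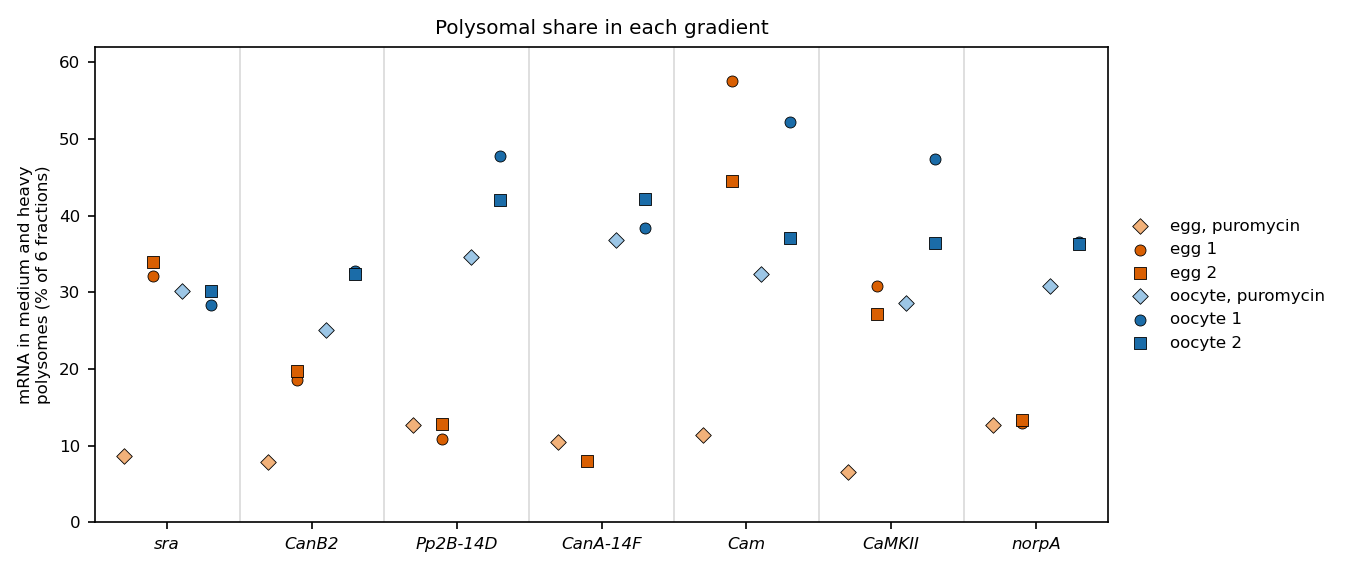
Polysomal share (vertical axis, % of mRNA found in medium plus heavy polysomes) in each of 6 gradients, with puromycin eggs and untreated eggs in orange to the left of puromycin oocytes and untreated oocytes in blue. Puromycin eggs lie between 6.55% and 12.7% for all 7 genes shown, and puromycin oocytes between 25.1% and 36.8%.

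The difference between the puromycin effects of the stages was itself tested. It was -2.45 ± 0.28 for sra (log2 odds, SE; adjusted p of 0.00114, limma), -2.27 ± 0.65 for Cam (adjusted p of 0.0248), -1.69 ± 0.43 for CaMKII (adjusted p of 0.0162) and -0.93 ± 0.27 for CanB2 (adjusted p of 0.0259). These 4 of 6 members were lower, as were 49.9% of all genes, whose median was -0.99, while 5.84% were higher and 55.7% differed in either direction. Pp2B-14D at 0.71 and norpA at 0.25 did not pass, with adjusted p of 0.119 and 0.454 in limma, but after centring both passed as higher, at 1.90 and 1.44 (adjusted p of 0.00492 and 0.00673). Pp2B-14D also passed after scaling every fraction to its own sum (1.57, adjusted p of 0.00437, limma) and without egg replicate 2 (0.84, adjusted p of 0.0352, limma). After centring, the sra difference was -1.25 with an adjusted p of 0.0137 (limma), and Cam (-1.07), CaMKII (-0.49) and CanB2 (0.27) no longer passed. CanB2 also missed the limma threshold without oocyte replicate 1 (adjusted p of 0.0981) and without oocyte replicate 2 (adjusted p of 0.108). Each puromycin value is a single gradient.

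Ribosome footprints gave another view of the same messages. Translational efficiency is the footprint RPKM divided by the RNA RPKM of the same stage and cycloheximide state, tested as the difference of log2(RPKM + 1) values. The changes quoted are on that scale. Of 7 members, 2 were higher in eggs than in oocytes and 3 lower, while 46.0% of 5840 transcripts were higher and 24.7% lower, 70.7% in either direction. The members' median change was -0.65, and that of all transcripts 0.50.

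Footprints on sra were many times more abundant in eggs. They had 119 RPKM without cycloheximide and 144 RPKM with it in eggs, against 7.87 and 8.04 RPKM in oocytes. Its RNA was 37.6 and 38.4 RPKM in eggs, against 36.1 and 38.0 RPKM in oocytes, so the ratio was 3.18 and 3.76 in eggs and 0.218 and 0.211 in oocytes. The egg ratio was 14.6 times the oocyte ratio without cycloheximide and 17.8 times with it, and the change in efficiency was 3.85 ± 0.24 (log2, SE; adjusted p of 2.36e-06, limma), the 167th highest of 5840 transcripts. In rank among transcripts, sra efficiency exceeded 86.7% and 89.2% of them in eggs and 15.5% and 21.3% in oocytes. The change ran from 3.08 to 4.09 over the alternatives tried and passed in each. The polysomal share of sra, described above, did not pass its test between the same stages, though it passed as higher with gradients centred on their median. These scales are unlike: RPKM is relative to the whole library, whereas the share is relative to the gene's own total. Whether this accounts for the unlike results was not tested.

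Cam carried more footprints than the other members at every stage. It had 2834 and 2946 RPKM in eggs without and with cycloheximide, against 1628 and 1778 RPKM in oocytes. The ratio to RNA was 5.80 and 4.74 in eggs, against 3.12 and 3.58 in oocytes. The stages did not overlap, and the change in efficiency was 0.65 ± 0.19 (log2, SE; adjusted p of 0.014, limma), but after centring libraries on their median it was -0.12 and did not pass.

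The catalytic subunits and CaMKII had lower efficiency in eggs. Pp2B-14D had ratios of 0.459 and 0.551 in eggs, against 0.941 and 0.743 in oocytes, a change of -0.71 ± 0.22 (log2, SE; adjusted p of 0.0183, limma). CanA-14F had ratios of 0.160 and 0.273 in eggs, against 0.568 and 0.373 in oocytes, a change of -1.06 ± 0.31 (adjusted p of 0.0131, limma). CaMKII had ratios of 0.843 and 0.860 in eggs, against 1.91 and 1.33 in oocytes, a change of -0.90 ± 0.26 (adjusted p of 0.0119, limma). For each of the 3 both egg ratios were below both oocyte ratios. As in the inputs, the division of reads between the paralogs Pp2B-14D and CanA-14F is uncertain. Without the egg library pair that had no cycloheximide, only sra passed among all 7 members, with adjusted p of 0.182 for CanA-14F, 0.216 for Pp2B-14D, 0.143 for CaMKII and 0.203 for Cam in limma. Without the oocyte pair that had no cycloheximide, CanA-14F (adjusted p of 0.0981), Pp2B-14D (0.0604) and Cam (0.053) did not pass in limma. Without the egg pair with cycloheximide, Pp2B-14D (adjusted p of 0.0569) and CaMKII (0.0687) did not, and Pp2B-14D was also lost without either png egg pair (0.0645 and 0.0646).

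CanB2 had ratios of 0.328 and 0.433 in eggs, against 0.431 and 0.811 in oocytes, which overlap, and its change of -0.65 ± 0.30 (log2, SE) had an adjusted p of 0.083 in limma. After centring it passed at -1.42 (adjusted p of 0.0107). For norpA, efficiency and polysomal share had opposite signs. Its ratio was 0.279 and 0.305 in eggs, against 0.190 and 0.187 in oocytes. The norpA change of 0.53 ± 0.22 (log2, SE) had an adjusted p of 0.0527 in limma and became -0.24 after centring. Its footprints alone were 11.6 and 12.5 RPKM in eggs, against 5.85 and 5.80 RPKM in oocytes.

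**Figure D3:**
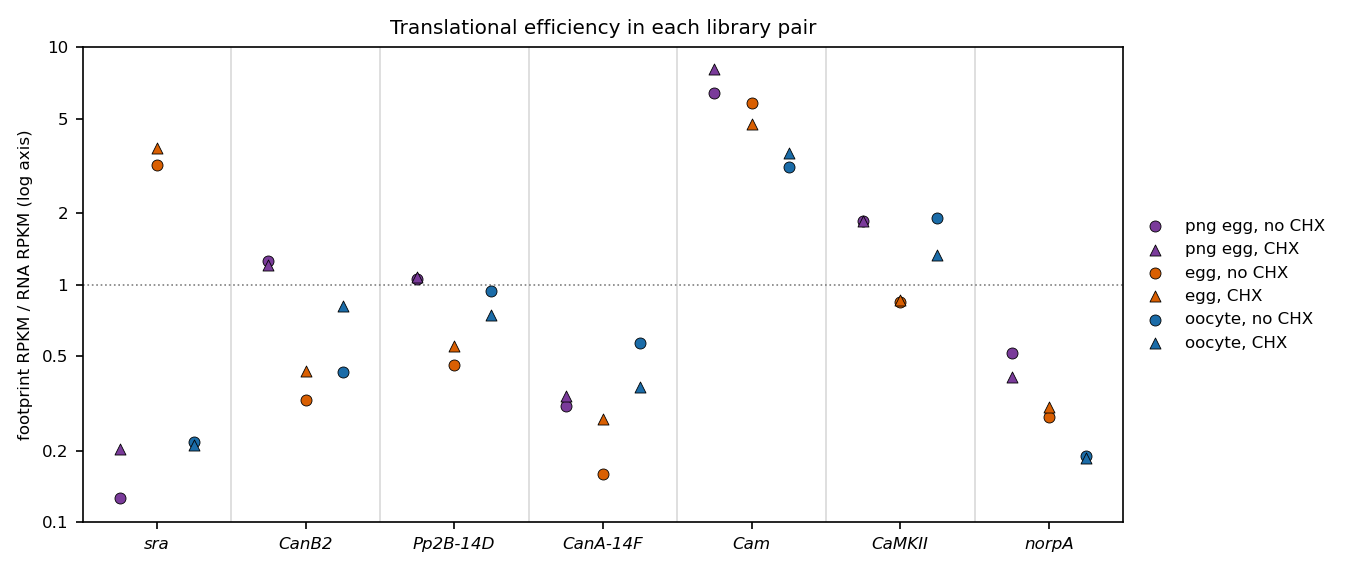
Footprint RPKM divided by RNA RPKM (vertical axis, logarithmic) for 7 genes in png eggs (purple), eggs (orange) and oocytes (blue), as circles without cycloheximide (CHX) and triangles with it; the dotted line marks a ratio of 1. The sra ratio was 3.18 and 3.76 in eggs and at most 0.218 in png eggs and oocytes.

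In footprint libraries taken alone, 5 of 7 members differed between eggs and oocytes, as did 79.4% of transcripts, 52.0% higher and 27.4% lower. sra, Cam and norpA were higher in eggs and Pp2B-14D and CaMKII lower. After centring Cam turned to -0.04 and norpA, at 0.13, no longer passed (log2 scale). With that centring 1 of 7 members was called higher and 4 lower, beside 2095 and 2767 of 5840 transcripts. RNA of the same series changed for 0 of 7 members at the limma threshold, and for 0.394% of all transcripts. At an unadjusted p of 0.05, CanA-14F at 0.55 and norpA at 0.41 would be higher in eggs (log2 scale).

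In png eggs, sra footprints were far below their level in eggs with wild type png. They had 7.14 and 11.7 RPKM in png eggs without and with cycloheximide, against 119 and 144 RPKM in eggs. Its RNA was 56.2 and 57.6 RPKM in png eggs, against 37.6 and 38.4 RPKM in eggs. The ratio was 0.127 and 0.203 in png eggs, against 3.18 and 3.76 in eggs, a change in efficiency of -4.27 ± 0.24 (log2, SE; adjusted p of 9.14e-07, limma), the 234th lowest of 5840 transcripts. Over the alternatives tried the change ran from -4.53 to -3.73 and passed in each. The RNA change of 0.57 (log2) had an adjusted p of 0.0869 in limma.

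For 4 other members efficiency changed in the opposite direction. Of 7 members, 4 had a higher efficiency in png eggs than in eggs and sra alone a lower one, while 32.1% of transcripts were higher and 38.0% lower, 70.1% in either direction. CanB2 had ratios of 1.26 and 1.22 in png eggs, against 0.328 and 0.433 in eggs, a change of 1.70 ± 0.30 (log2, SE; adjusted p of 0.000789, limma). Pp2B-14D had 1.05 and 1.08 in png eggs, against 0.459 and 0.551 in eggs, and its change was 1.05 (adjusted p of 0.00236, limma). CaMKII had 1.85 and 1.86 in png eggs, against 0.843 and 0.860 in eggs, and its change was 1.11 (adjusted p of 0.00387, limma). norpA had 0.514 and 0.409 in png eggs, against 0.279 and 0.305 in eggs, with a change of 0.62 (adjusted p of 0.0288, limma).

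CanA-14F, with 0.309 and 0.340 in png eggs and 0.160 and 0.273 in eggs, did not pass, nor did Cam, with 6.39 and 8.06 in png eggs and 5.80 and 4.74 in eggs. Their changes were 0.56 and 0.45 (log2), with adjusted p of 0.136 and 0.0621 in limma, and both passed after centring, at 1.11 and 1.00. Without the egg pair lacking cycloheximide, 3 members passed, and without the png egg pair with cycloheximide, 2. In footprints taken alone all 7 members differed between png eggs and eggs, 6 higher and sra lower, and 76.2% of transcripts did, 34.4% higher and 41.8% lower. Series RNA changed for 0 of 7 members in this pair and for 6.15% of transcripts, though sra had an unadjusted p of 0.0094.

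The comparisons of eggs with oocytes and of png eggs with eggs share the egg libraries, so a low egg value enters both with opposite signs. The pair that does not use them, png eggs against oocytes, was added after the data were seen. There 3 of 7 members passed, all higher, and 36.0% of transcripts were higher and 23.3% lower, 59.3% in either direction: norpA at 1.15, Cam at 1.10 and CanB2 at 1.06 (log2; adjusted p of 0.00171, 0.00115 and 0.014, limma). sra at -0.42 ± 0.24 (SE) had an adjusted p of 0.166, which does not show that png eggs and oocytes are equal. It passed at -0.65 after centring (adjusted p of 0.0101, limma), where CanB2 no longer did (0.83, adjusted p of 0.0995).

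**Figure D4:**
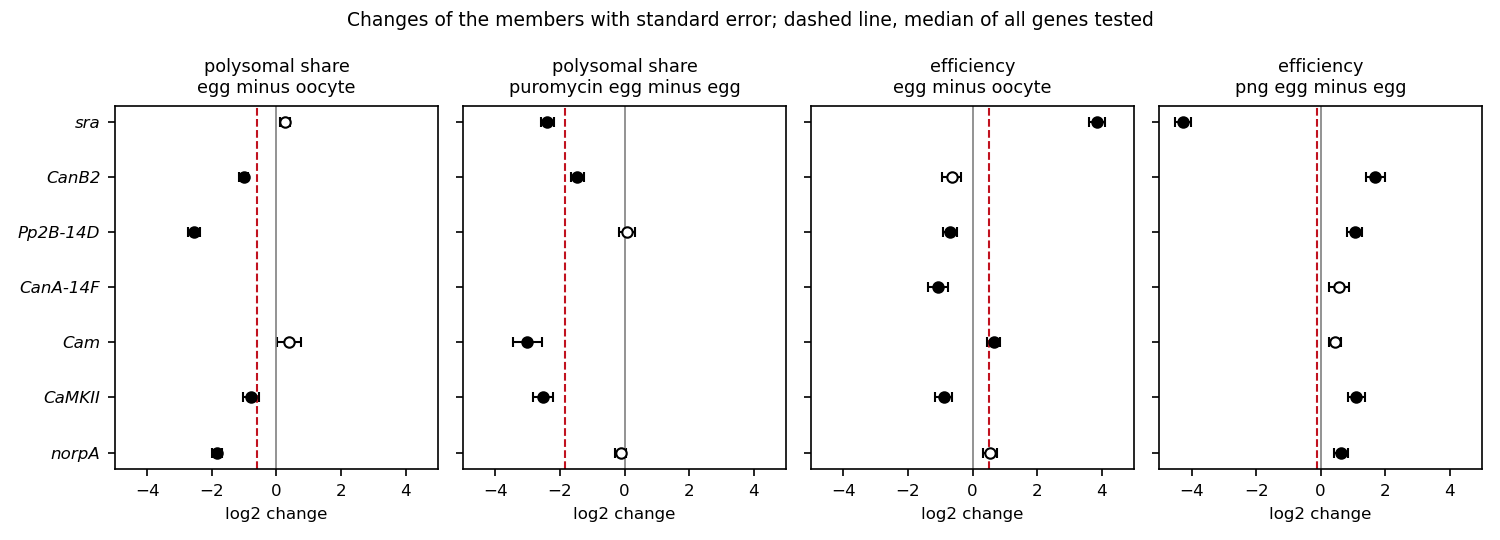
Log2 changes (horizontal axis; points with standard error bars) of members in 4 comparisons, with filled points past an adjusted p of 0.05 in limma, open points not, and a dashed line at the median of all genes or transcripts tested; shares are log2 odds. sra stands at 3.85 in efficiency for eggs against oocytes and at -4.27 for png eggs against eggs, while its polysomal share changed by 0.26; CanA-14F is absent from the gradient panels because it was listed in 5 gradients.

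Other genes of the pathway showed a mixed pattern on the gradients. Of 17 channels, pumps and phospholipases, 11 could be tested, 2 had a higher polysomal share in eggs than in oocytes and 5 a lower one, with a median of -0.32 beside -0.60 for all genes, of which 18.2% were higher and 51.0% lower. The lower ones included Letm1 of the mitochondrial membrane, with 8.85% and 11.0% in eggs against 42.9% and 41.9% in oocytes. The endoplasmic calcium pump gene SERCA had 17.5% and 15.1% in eggs, against 53.1% and 48.5% in oocytes. olf186-F, the Orai store-operated channel, had 12.9% and 14.9% in eggs, against 46.8% and 46.6% in oocytes, and the sodium-calcium exchanger gene CalX had 7.70% and 7.88%, against 28.5% and 28.8%. The efficiency of olf186-F was among 8 of 13 on this list that were higher in eggs, with 3 lower, Letm1 and SERCA among them, where 46.0% of all transcripts were higher and 24.7% lower. The olf186-F change of 0.62 ± 0.21 (log2, SE; adjusted p of 0.0276, limma) was close to the median of all transcripts, 0.50.

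Of 16 genes for calcium effector kinases and calcium-binding proteins, 6 could be tested, and 1 was higher in eggs and 3 lower. These counts are near the 18.2% and 51.0% of all genes. The list median was -0.94, beside -0.60 for all genes. The higher one, CG17528, had a polysomal share of 66.3% and 59.4% in eggs, against 21.3% and 17.8% in oocytes, and a change of 2.76 ± 0.21 (log2 odds, SE; adjusted p of 0.000127, limma). CASK had 10.4% and 10.6% in eggs, against 33.6% and 34.9% in oocytes. The kinase gene CaMKI had 9.74% and 9.61% in eggs, against 32.6% and 28.1% in oocytes. The chaperone gene Cnx99A had 13.7% and 15.2% in eggs, against 31.2% and 26.2% in oocytes. In efficiency 4 of 8 on this list were higher in eggs and 2 lower, where 46.0% of all transcripts were higher and 24.7% lower. Efficiency was higher for Cnx99A (1.11 in log2, adjusted p of 0.000608, limma) and CG17528 (4.02) and lower for CaMKI (-1.36). That of CASK (0.23, adjusted p of 0.497, limma) did not pass.

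Among 12 genes of egg activation, 11 could be tested, 2 were higher in eggs and 7 lower, with a median of -1.07, where 18.2% of all genes were higher and 51.0% lower. Ya, a nuclear envelope protein gene of the early embryo, had the largest change of the list, -3.30 in log2 odds, with 7.78% ± 1.58 in eggs and 45.2% ± 1.62 in oocytes (SD, n = 2 each). cort, an activator of the anaphase-promoting complex, had 10.1% and 10.7% in eggs, against 50.9% and 42.0% in oocytes. wisp, a cytoplasmic poly(A) polymerase gene, had 8.47% and 9.16% in eggs, against 41.3% and 38.4% in oocytes, and png had 12.1% and 11.4%, against 37.4% and 32.5%. sgg, the GSK-3 kinase gene whose product phosphorylates Sarah, changed in polysomal share by -0.06 ± 0.16 (log2 odds, SE) with an adjusted p of 0.763 in limma. Its efficiency was higher in eggs, by 1.56 ± 0.20 (log2, SE; adjusted p of 0.000109, limma). In efficiency 5 of 12 on this list were higher in eggs and 5 lower, where 46.0% of all transcripts were higher and 24.7% lower.

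Of 12 other serine-threonine phosphatase catalytic subunit genes, 10 could be tested, 2 were higher in eggs and 4 lower, with a median of -0.67, where 18.2% of all genes were higher and 51.0% lower. CG10417 had a polysomal share of 66.8% ± 3.21 in eggs and 27.4% ± 0.481 in oocytes (SD, n = 2 each). alph had 37.0% and 35.0% in eggs, against 59.8% and 57.4% in oocytes. PpD3 had 22.4% and 25.6% in eggs, against 40.8% and 37.3% in oocytes, and Pp2C1 had 21.1% and 23.8%, against 34.4% and 31.7%. In limma the Pp2C1 call was lost without oocyte replicate 1 (-0.68, adjusted p of 0.0559), after centring (-0.26, adjusted p of 0.188) and with heavy polysomes alone (-0.69, adjusted p of 0.064). That of PpD3 was lost after scaling every fraction to its own sum (-0.42, adjusted p of 0.125) and with heavy polysomes alone (-0.73, adjusted p of 0.0729, limma). In efficiency, 8 of the 10 were higher in eggs than in oocytes and 0 lower, with a median change of 1.36 beside 0.50 for all transcripts, of which 46.0% were higher and 24.7% lower. Input RNA changed for none of the tested genes on these 4 lists in limma.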

How the data were processed

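The members and the gene lists were chosen with earlier results of these data known. Sequencing libraries came from polysome gradient fractions and unfractionated inputs (42 samples, each with its own table) and from ribosome footprints with matched RNA (12 of 54 samples, 1 shared table). The submitters' processing notes name FastQC, TopHat 1.3.2, HTSeq, Bowtie and build dm3, with no role or order for each tool. The inputs and the footprint table hold RPKM values as the authors deposited them. The gradient tables hold RPKM that the authors rescaled between fractions, with a deposited fraction of each gene's total that was reproduced here within 0.0052, and the sources used here do not give the rescaling formula. Yeast mRNA (5 ng) was spiked into the fractions of all 6 gradients, per the series design and the labels, and the labels name a luciferase spike in the egg and puromycin gradients but not in untreated oocyte gradients. The input, fraction and footprint-series RNA libraries were poly(A)-selected per the labels' protocols, so there a change in tail length and a change in amount cannot be told apart. Efficiency divides footprints by such RNA.

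Genes were tested with limma 3.58.1 in R 4.3.3 (empirical Bayes with trend) and Benjamini-Hochberg adjustment over all features, at an adjusted p of 0.05. Gradients used the log2 odds of a share with 1 added to each side, for genes listed in all 6 gradients with a mean sum of at least 10, fitted over all 4 groups. Inputs used log2(RPKM + 1) of genes averaging at least 1 RPKM in the 2 egg and 2 oocyte libraries. Footprints used 1 model of 12 libraries with a cycloheximide term for each assay, and efficiency was the footprint change minus the RNA change. With 1 library per stage and cycloheximide state, the spread comes from how consistently the states differ. A fold change on these scales understates the change of low genes. The fits were run on simulated data with known changes, in which all genes had the same noise and no stage-wide shift. That setting is simpler than these data and does not show how reliable the calls here are.

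The input depth was read from the step between the lowest RPKM values and Ensembl exon lengths of another build (BDGP6), so it is approximate. No coordinates are printed because the files use dm3. Genes named outside the members were, for each list, up to 4 with the largest change past the threshold in polysomal share, plus sgg, chosen after its value was seen. Genes with the most similar profile were the 3 with the smallest root-mean-square difference of fraction shares. Alternatives covered pseudocounts, filters, scaling, centring, other polysome cuts, a replicate term and leaving out libraries.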

Additional observations from a re-analysis of the deposited data

Results flagged for a closer look

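For 4 messages the effect of puromycin on the polysomal share differed between eggs and oocytes in a test of that difference (limma, adjusted over 5088 genes), given as the effect in eggs minus the effect in oocytes in log2 odds. The difference was -2.45 for sra, whose share was 8.61% in puromycin eggs against 32.1% and 34.0% in eggs, and 30.2% in puromycin oocytes against 28.3% and 30.2% in oocytes. It was -2.27 for Cam, with 11.4% in puromycin eggs against 57.5% and 44.6% in eggs, and 32.4% in puromycin oocytes against 52.2% and 37.1% in oocytes. For CaMKII it was -1.69, with 6.55% in puromycin eggs and 28.6% in puromycin oocytes. For CanB2 it was -0.93, with 7.94% in puromycin eggs and 25.1% in puromycin oocytes. The rescaled totals of these 4 messages were larger in the puromycin gradient of each stage than in its untreated gradients. A lower share thus need not mean less polysomal mRNA. Each stage has a single puromycin gradient, and 55.7% of all genes passed the same test. With gradients centred on their median, sra at -1.25 still passed, Cam at -1.07 and CaMKII at -0.49 did not, and CanB2 turned to 0.27.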

How the results depend on the processing

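Over 880 values of single genes under the alternatives tried, 723 kept their direction and their side of the limma threshold, 76 no longer passed, 48 newly passed and 33 turned sign. The efficiency changes of sra for eggs against oocytes and for png eggs against eggs, and the lower polysomal share of Pp2B-14D and norpA in eggs, kept their calls in each alternative run. In polysomal share of eggs against oocytes, 924 genes were higher and 2593 lower, but 1594 and 1883 with gradients centred on their median, and 1435 and 1922 after scaling every fraction to its own sum. For efficiency of eggs against oocytes, 2686 transcripts were higher and 1445 lower, but 1883 and 2565 after centring. For png eggs against eggs, 1876 were higher and 2218 lower, but 2762 and 1823 after centring. The authors' scaling of fractions cannot be checked here, and the depth of fraction and footprint libraries is unknown. The cause of the changes listed next was not tested.

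With heavy polysomes alone, the change for eggs against oocytes was -0.59 for sra and -0.98 for Cam, Pp2B-14D in puromycin eggs was -0.73, and the difference of the puromycin effects was -0.36 for Pp2B-14D and -0.76 for norpA. With 5 added to each side, Pp2B-14D in puromycin eggs was -0.06. After scaling every fraction to its own sum, puromycin oocytes against oocytes gave 0.68 for CanB2, 0.65 for Pp2B-14D, 0.37 for Cam and 0.97 for norpA, with 2 members called, and puromycin eggs against eggs gave 0.25 for CanB2 and 2.05 for norpA. The free RNP share then had 2 members called. With gradients centred on their median, puromycin oocytes gave 0.18 for CanB2, 0.08 for Pp2B-14D and 0.34 for norpA with 1 member called, puromycin eggs gave 0.45 for CanB2 and 1.78 for norpA with 2 members called, and the difference of effects was 0.27 for CanB2. The free RNP share under that centring had 1 member called, with -0.76 for Cam, -0.10 for CaMKII and -0.05 for norpA. With low, medium and heavy polysomes counted together, puromycin oocytes gave 0.37 for Pp2B-14D, 0.11 for Cam and 0.67 for norpA with 1 member called, puromycin eggs gave 1.38 for norpA, and 2 members were called for the difference of effects. With footprint libraries centred on their median, Cam was -0.12 and norpA -0.24 in efficiency of eggs against oocytes, Cam footprints were at -0.04, and 1 member was called in series RNA of png eggs against eggs.

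Leaving out 1 library, gradient or library pair at a time, the count of members called ranged from 0 to 4 for puromycin oocytes, 3 to 6 for the free RNP share, 0 to 3 for input RNA, 1 to 5 for efficiency of eggs against oocytes, 2 to 7 for png eggs against eggs, 1 to 5 for png eggs against oocytes, 0 to 1 for series RNA of png eggs against eggs, 3 to 6 for footprints of eggs against oocytes and 4 to 7 for footprints of png eggs against eggs. Single values ranged from -0.07 to 0.82 for Cam in polysomal share of eggs against oocytes, from -0.01 to 0.12 for sra in puromycin oocytes, from -0.06 to 0.22 for Pp2B-14D in puromycin eggs, from -0.88 to 0.24 for Cam input RNA, and from -0.67 to 0.12 for CanB2 footprints of eggs against oocytes.

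Replicate numbers were shared between stages, but deviations of same-numbered samples correlated at -0.029 for polysomal share and -0.028 for input RNA across genes, so the numbers do not pair the samples. With a replicate block, 4 members were called in polysomal share and 0 in input RNA, as without it, and 6 rather than 5 in the free RNP share.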
